A study of Arabidopsis thaliana with 114 samples.

Results

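The genes described here encode proteins of the cytosolic small (40S) ribosomal subunit of Arabidopsis thaliana. They are 46 nuclear genes of 18 protein families of the subunit, taken from a list of gene identifiers defined by annotation. The list does not hold every copy: AT1G58684, a copy of the listed RPS2 gene AT1G59359, is not in it. Statements on a family below cover its listed genes only. The count files hold 28712 gene identifiers, and all 46 genes were present and passed the filter on low counts in both organs. Genes are given by the identifier in the files, with the symbol of RefSeq where it has one.

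The study measured polyadenylated RNA in shoots and roots of seedlings grown with 1% sucrose and 1 mM KNO3. The N seedlings received 20 mM KNO3 plus 20 mM NH4NO3 (60 mM nitrogen), and the KCl seedlings received 20 mM KCl as the control. Both arms were sampled 5, 10, 15, 20, 30, 45, 60, 90 and 120 min after supply (the labels give these times without a unit, read here as minutes), and untreated seedlings were sampled at time 0. Each group has 3 libraries, giving 57 libraries per organ and 114 in all. The N and KCl arms differ in nitrate, ammonium, chloride and total salt together, so the effects of these ions cannot be told apart. The labels used here give no ecotype, genotype or seedling age and do not say whether replicates came from separate cultures, so p-values measure the spread between libraries, which may be technical.

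The 40S subunit binds mRNA and reads its codons, while the large (60S) subunit joins the amino acids. Ribosomal proteins are made in the cytosol, imported into the nucleolus and assembled there on ribosomal RNA with the help of assembly factors, and in plants each protein is encoded by a small family of near-identical genes (paralogs). Ribosome production is a large cost in nitrogen and energy, and the TOR kinase pathway, which acts through S6 kinases on the protein RPS6, is a known regulator of it.

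Promoters of plant ribosomal protein genes are known for 2 short motifs, the telo-box and the site II element. The telo-box was searched as AAACCCTA and the site II element as TGGGCC or TGGGCT, each on both strands, in 250 bases before and 50 bases after the annotated gene start of RefSeq TAIR10.1. A telo-box was present in 24 of the 46 windows (52.2%, 95% Wilson interval 38.1 to 65.9%), against 1683 of 27397 windows of other protein-coding genes (6.14%). A site II element was present in 31 of 46 windows (67.4%, 53.0 to 79.1%), against 21.6% of the other genes. Telo-boxes lay largely past the annotated start: with the 250 upstream bases alone, 17.4% of the 46 genes held one, against 4.46% of other genes, whereas the site II share was 60.9%, against 19.1%. A match is a run of letters and does not show that a factor binds there. The upstream 250 bases of 4 genes are shown 5′ to 3′ on the gene's own strand, with motif matches in capitals. The RPSa gene had the smallest any-time p in the shoot and no match in these bases, and the others had 1, 3 and 4 site II matches. In the RPS7 gene the run TGGGCCCA is counted once per strand. With the 50 bases after the start included, the RPS4 and RPS7 genes each held 1 telo-box and the RPS6 gene held 2 site II matches. The RPSa gene again had none.
RPSa gene AT3G04770, chr3:1311130-1311379, minus strand: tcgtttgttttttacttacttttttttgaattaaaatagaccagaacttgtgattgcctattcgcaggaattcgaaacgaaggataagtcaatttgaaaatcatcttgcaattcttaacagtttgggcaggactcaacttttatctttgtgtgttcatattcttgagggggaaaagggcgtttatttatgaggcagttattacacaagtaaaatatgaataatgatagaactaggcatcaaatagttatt
RPS6 gene AT4G31700, chr4:15347805-15348054, minus strand: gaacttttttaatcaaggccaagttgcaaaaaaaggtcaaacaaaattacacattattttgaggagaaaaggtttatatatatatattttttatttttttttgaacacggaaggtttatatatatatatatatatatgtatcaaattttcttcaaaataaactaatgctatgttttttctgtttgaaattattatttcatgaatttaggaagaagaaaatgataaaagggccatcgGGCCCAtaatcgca
RPS4 gene AT5G58420, chr5:23619209-23619458, plus strand: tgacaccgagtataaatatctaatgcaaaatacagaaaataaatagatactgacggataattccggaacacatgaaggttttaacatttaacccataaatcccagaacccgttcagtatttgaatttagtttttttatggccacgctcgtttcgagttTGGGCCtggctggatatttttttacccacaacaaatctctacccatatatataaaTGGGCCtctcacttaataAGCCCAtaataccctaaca
RPS7 gene AT3G02560, chr3:541458-541707, plus strand: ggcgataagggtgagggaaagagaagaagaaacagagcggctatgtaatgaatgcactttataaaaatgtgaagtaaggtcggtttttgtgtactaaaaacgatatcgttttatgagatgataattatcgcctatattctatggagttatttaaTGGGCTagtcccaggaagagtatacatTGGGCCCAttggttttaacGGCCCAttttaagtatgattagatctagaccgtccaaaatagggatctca

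**Figure D1:**
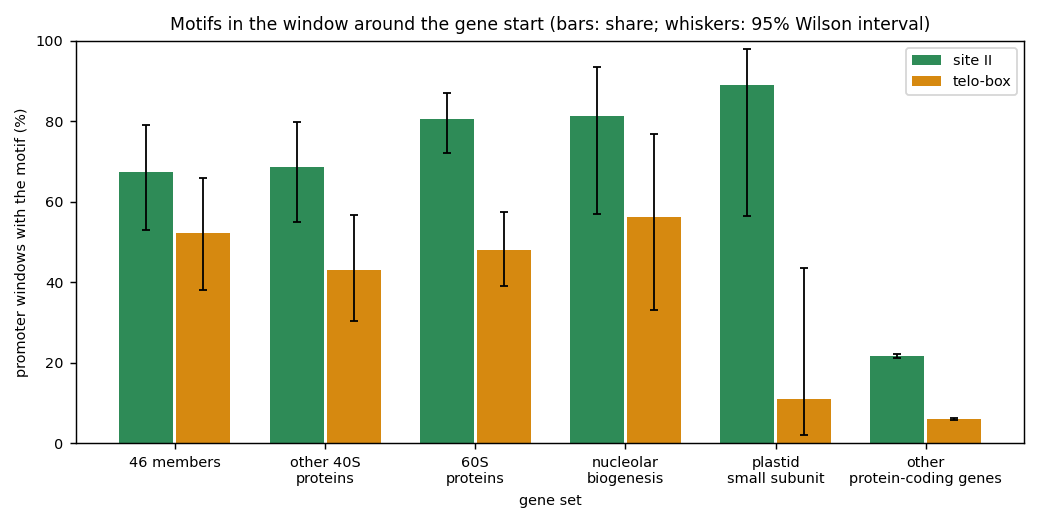
Bars give the share of promoter windows, in percent, that hold a site II element (green) or a telo-box (orange) in each gene set, with 95% Wilson intervals as whiskers. The 46 genes stand at 67.4% and 52.2%, against 21.6% and 6.14% of other protein-coding genes; 8 of 9 windows of nuclear genes for plastid small-subunit proteins hold a site II element and 1 of 9 a telo-box.

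Several libraries and processing steps bear on the values. Counts assigned to genes ranged over libraries from 5710272 to 43570824 in shoots and from 13878732 to 143269564 in roots. One further shoot library, KCl replicate 2 at 90 min, held 1302 counts and was left out, so that group has n = 2. All 12 root libraries of 10 and 15 min, in both arms, stood apart from the other 45 root libraries: on the first principal component, which held 59.1% of the variance, they lay at 136 to 200, against -59.8 to -36.4. In these 12 libraries the 46 genes summed to 23630 to 37440 CPM (counts scaled to the effective library size), against 10830 to 19740 CPM in the other root libraries, and the 5 root marker genes summed to 275 to 677 CPM, against 100.4 to 278 CPM. The other marker lists were higher there too. The 6 shoot marker genes had a median sum of 138 CPM, against 63.8 CPM, and the 4 dividing cell markers 114 CPM, against 88.2 CPM. The factors that scale library size (TMM) were 0.633 to 0.825, against 0.992 to 1.17. Root effects at 10 and 15 min rest on these libraries, and whether extraction or handling had a part in them was not tested. The shoot files hold 0 reads in the line for reads that map to several places, whereas this line takes 7.06 to 48.6% of the root files, so organ and file processing cannot be told apart. In the shoot libraries used, the line for reads that fall in no gene differed between arms. From 5 to 30 min it took 1.83 to 2.99% with N and 3.04 to 5.51% with KCl. At 45 min it took 1.97, 3.84 and 4.60% with N. At 60 and 90 min it took 3.24 to 4.50% with N and 2.84 to 3.41% with KCl. Whether this had a part in the shoot effects was not tested. The organ labels fit the markers: the 6 shoot marker genes (photosynthesis) summed to 2816 to 8789 CPM in shoots and 40.3 to 394 CPM in roots, and the 5 root marker genes to 1.23 to 12.2 CPM in shoots and 100.4 to 677 CPM in roots.

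In the shoot the mRNA of all 46 genes was higher with N than with KCl late in the course. A gene is called where the adjusted p of edgeR's quasi-likelihood test is under 0.05, with Benjamini-Hochberg adjustment over all 20899 genes tested in the shoot. Over the 9 times together all 46 genes were called, where the background was 47.4% of all genes. At the first 4 times edgeR's quasi-likelihood test called 0 members, where the background of all genes was 0.0574% after 5 min and 0.890% after 10 min, then 1.77% after 15 min and 3.11% after 20 min. DESeq2 called 3 members after 10 min and 2 members after 20 min. At an unadjusted p under 0.05 there were 3 members after 5 min (7.99% of all genes) and 12 members after 10 min (8.70% of all genes). There were 15 members after 15 min (11.3% of all genes) and 6 members after 20 min (13.6% of all genes). The members leaned upward at 10 min, with a median log2 fold change of 0.15 and 25 genes whose N libraries all lay above the KCl libraries (7.56% of all genes). They leaned downward at 15 min, with a median of -0.15 and 18 genes whose N libraries all lay below the KCl libraries (11.1% of all genes). The 46 genes summed to 7531, 6475 and 6598 CPM in the KCl shoots at 15 min, against 5543 to 5900 CPM at 10 min. In the N shoots the sums were 5722 to 6423 CPM at 15 min and 6264 to 6463 CPM at 10 min. The 7531 CPM is from KCl replicate 1, which had the fewest counts of the shoot libraries used (5710272). Its part in the downward lean was not tested. In the same 15 min shoots all 6 shoot markers were at an unadjusted p under 0.05, with a median of -0.70 and 0 called by edgeR or DESeq2, and their part in the result was not tested. After 30 min 1 gene was called higher (background called higher 3.95%). The number called higher was 36 after 45 min (background 12.3%) and 37 after 60 min (background 13.7%). All 46 were called higher after 90 min (background 18.8%) and again after 120 min (background 19.1%), and every call of a member in the shoot was toward higher levels with N. The first call came after 30 min in 1 gene and after 45 min in 35 genes. Another 4 genes were first called after 60 min and the other 6 after 90 min. The median log2 fold change of the 46 genes was 0.36 after 45 min and 0.46 after 60 min. It was 0.93 after 90 min and 0.81 after 120 min, where the median of all genes tested at these times lay between -0.03 and 0.00. The N libraries lay above the KCl libraries for each of the 46 genes at 90 min, with 2 KCl libraries (25.1% of all genes), and at 120 min (24.8% of all genes). In bulk tissue, more RNA per cell and a larger share of cells that express a gene cannot be told apart.

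The sum over the 46 genes shows the size of the change. At 120 min the 3 N shoots summed to 10575, 10569 and 9786 CPM, against 5693, 5698 and 5995 CPM in the KCl shoots. At 90 min the N shoots summed to 9907, 9523 and 10094 CPM, against 5133 and 5899 CPM in the 2 KCl shoots. Untreated shoots summed to 5030, 4665 and 4778 CPM, below every treated shoot library of either arm. In the root at 120 min the sums were 18294, 19681 and 17975 CPM with N and 12137, 11543 and 16151 CPM with KCl. The groups did not overlap in either organ at 120 min, but KCl root replicate 3 lay well above the other KCl roots.

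**Figure D2:**
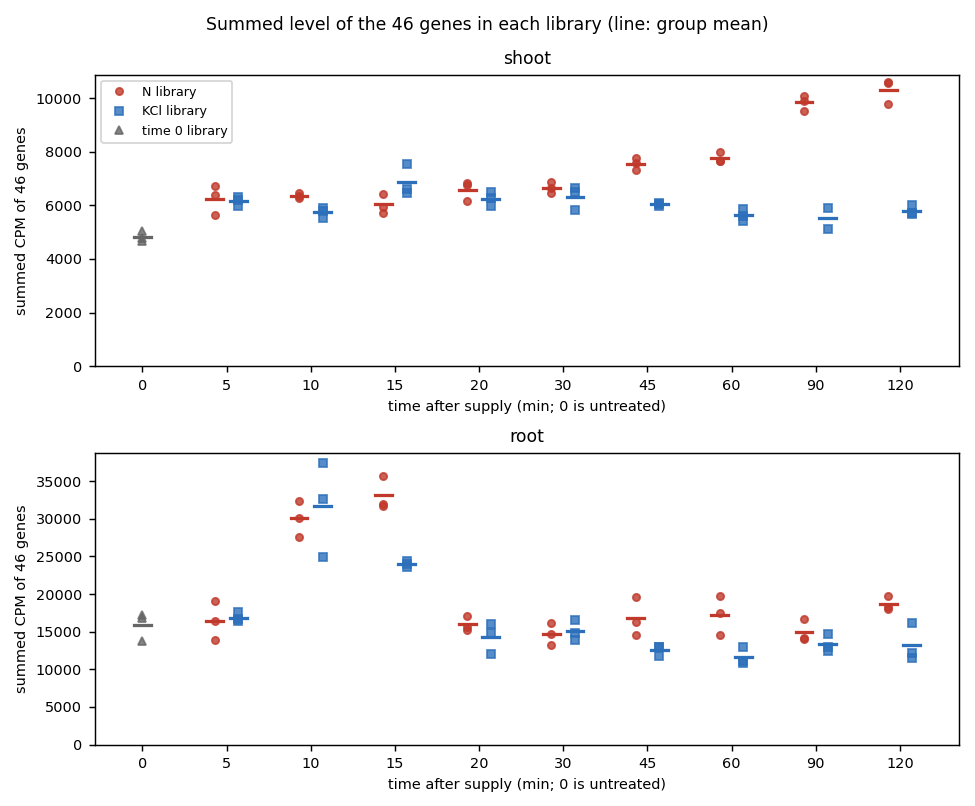
Each point is the summed CPM of the 46 genes in 1 library (shoot above, root below) against time in min on an evenly spaced axis, with N as red circles, KCl as blue squares, time 0 as grey triangles and the group mean as a line. N and KCl shoots also stand apart at 10 min (6264 to 6463 against 5543 to 5900 CPM) and, with N below, at 15 min (5722 to 6423 against 6475 to 7531 CPM), and reach 9786 to 10575 against 5693 to 5995 CPM at 120 min; root libraries of both arms at 10 and 15 min stand above all other root libraries.

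The 5 genes with the smallest any-time p in the shoot come from the RPSa, RPS16, RPS2, RPS6 and RPS4 families, and all had their smallest single-time p at 120 min. RPSAb (AT3G04770), 1 of 2 RPSa genes, whose protein sits between the head and the platform of the subunit, stood at 49.0, 56.4 and 50.4 CPM in N shoots, against 9.02, 7.70 and 8.39 CPM in KCl shoots. The N libraries were all above the KCl libraries, by 2.63 on the log2 scale (SE 0.15, adjusted p = 2.52e-18). The RPS16 gene AT2G09990, whose protein reaches toward the tRNA bound in the subunit, stood at 216, 237 and 236 CPM with N, against 97.5, 90.8 and 97.1 CPM with KCl. It was higher by 1.27 (SE 0.07, adjusted p = 2.64e-18) and was the 1 gene called at 30 min, by 0.23 (SE 0.07, adjusted p = 0.0394).

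The RPS2 gene AT3G57490, whose protein lies near the channel through which mRNA enters, stood at 194, 182 and 196 CPM with N, against 49.0, 50.3 and 47.3 CPM with KCl at 120 min. It was higher by 1.96 (SE 0.12, adjusted p = 8.23e-17). RPS6 (AT4G31700), which encodes the protein that S6 kinases phosphorylate, stood at 432, 468 and 393 CPM with N, against 176, 167 and 177 CPM with KCl. It was higher by 1.31 (SE 0.10, adjusted p = 4.8e-15), and its paralog EMB3010 (AT5G10360) by 0.79 (SE 0.07, adjusted p = 2.39e-12). The RPS4 gene AT5G58420, which encodes a protein of the subunit body, stood at 446.5, 469 and 407 CPM with N, against 189.9, 187 and 216 CPM with KCl. It was higher by 1.16 (SE 0.09, adjusted p = 2.39e-14), and for none of these 5 genes did the groups overlap at 120 min.

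The smallest log2 fold change of the 46 genes in the shoot at 120 min was that of RPS18C (AT4G09800), whose protein lies in the head of the subunit. It stood at 141, 132 and 139 CPM with N, against 112, 116.5 and 119.6 CPM with KCl at 120 min, higher by 0.24 (SE 0.09, adjusted p = 0.0338). The RPS18 paralog PFL (AT1G22780) was higher by 1.10 (SE 0.12, adjusted p = 1.9e-10) in the same libraries.

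Ordered by the place of the protein in the subunit, calls at 120 min in the shoot fell in families of the body, the platform and the head. Of proteins of the body and platform, the log2 fold changes were 0.71 and 0.74 for the RPS3a genes, 0.76 to 1.16 for the RPS4 genes, 0.54 to 1.02 for the RPS7 genes, 0.58 and 0.93 for the RPS9 genes, 0.71 and 0.75 for the RPS13 genes and 0.74 to 0.77 for the RPS14 genes. Of proteins of the head, they were 0.64 to 1.05 for the RPS3 genes, 0.62 to 0.94 for the RPS10 genes, 0.73 and 1.18 for the RPS12 genes, 0.65 and 1.16 for the RPS15 genes and 0.64 to 1.27 for the RPS16 genes. The most abundant genes of the RPSa and RPS2 families, P40 (AT1G72370) and AT2G41840, were higher by 0.78 and 0.74. Each gene named here was called at 120 min.

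**Figure D3:**
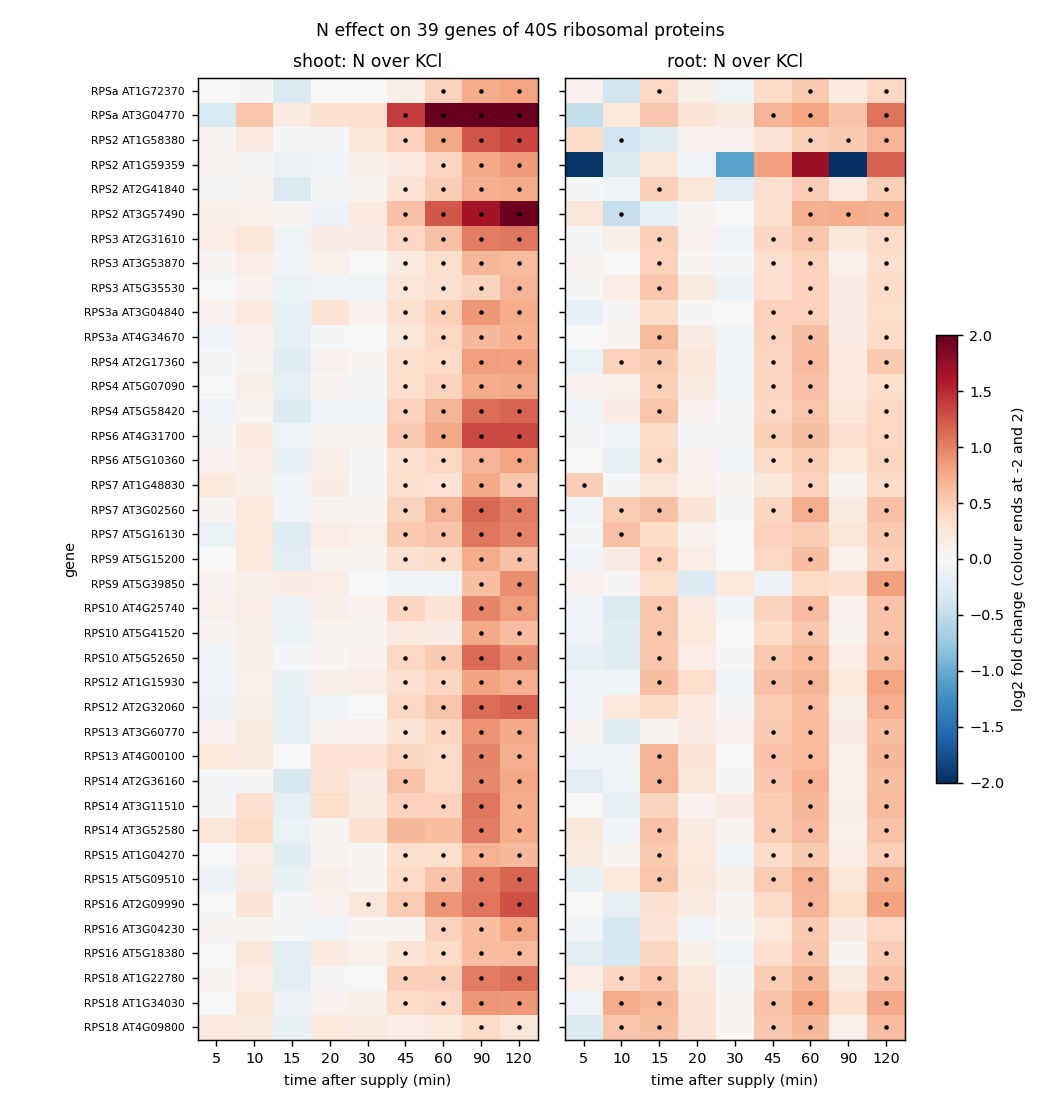
Colour gives the log2 fold change of N over KCl for 39 of the 46 genes (down the page, by family) at each of the 9 times in min (across), shoot on the left and root on the right; red is higher with N and black dots mark adjusted p under 0.05. The shoot panel fills from 45 min onward and is complete at 90 and 120 min, while the root panel holds most of its calls at 15, 45, 60 and 120 min, and holds 1 at 5 min and 2 at 90 min.

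The shoot effect grew between times. These tests of differences between times were added after the values were seen. For the counts of this paragraph with libraries left out, the share over all genes in the same fit is not given. A fall in them is therefore not shown to be particular to the members. From 30 to 120 min the N effect grew with an adjusted p under 0.05 in 40 of 46 genes (background called higher 10.3%), with a median difference of 0.76. From 60 to 120 min it grew in 14 genes (background called higher 3.04%), and with the libraries of replicate 1, 2 or 3 left out of every group the count was 2, 1 and 4. The RPS9 gene AT5G39850, whose protein takes part in decoding accuracy, grew most clearly from 60 to 120 min, by 1.03 (SE 0.19, adjusted p = 0.000329). At 45 min the count of 36 fell to 15 without replicate 2 and to 10 without replicate 3, so the first time of the rise is less certain than its presence at 90 and 120 min.

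In the root most of the 46 genes were also higher with N, after 15, 45, 60 and 120 min, with smaller medians than in the shoot at 90 and 120 min. Adjustment was over 22185 genes tested. Over the 9 times together 45 of 46 genes were called, where the background was 61.0%. After 5 min 1 gene was called higher (background called higher 1.20%), and after 10 min 9 genes (background 8.02%). The number was 27 genes after 15 min (background 8.26%). Markers moved in the same 15 min libraries: the 6 shoot markers had a median log2 fold change of 1.02 with 1 called, LHCA1 (AT3G54890; 1.19, SE 0.38, adjusted p = 0.017), and the 5 root markers a median of -0.89 with 1 called, CASP1 (AT2G36100; -1.01, SE 0.21, adjusted p = 0.000443). Their part in the result was not tested. EdgeR's quasi-likelihood test called 0 members after 20 min (background of all calls 3.76%) and after 30 min (background of all calls 5.51%), with 0 at an unadjusted p under 0.05 at either time and 0 called by DESeq2. After 45 min 25 genes were called higher (background 7.78%), and after 60 min 42 genes (background 14.5%). After 90 min the number was 2 genes (background 8.27%), and after 120 min it was 42 genes (background 18.6%). The only lower calls, 2 at 10 min (background 9.41%), were the RPS2 genes XW6 (AT1G58380; -0.38, SE 0.11, adjusted p = 0.0162) and AT3G57490 (-0.45, SE 0.14, adjusted p = 0.0179). The median log2 fold change of the 46 genes was 0.48 after 15 min, beside -0.08 for all genes tested, and 0.44 after 45 min, beside 0.01. It was 0.60 after 60 min, beside 0.01, then 0.16 after 90 min, beside -0.01, and 0.55 after 120 min, beside 0.03. All N libraries lay above all KCl libraries for 43 genes at 120 min (29.1% of all genes) and for 10 genes at 90 min (16.9% of all genes).

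Root counts depended on single libraries. The share over all genes in fits with libraries left out is not given, so a fall is not shown to be particular to the members. At 120 min the count of 42 was 23 without KCl replicate 1 and 21 without KCl replicate 2, and 46 without KCl replicate 3, the KCl root with the highest sum. It was 17 and 13 without all libraries of replicate 1 and of replicate 2. At 60 min the count of 42 fell to 3 without replicate 3, and at 45 min the count of 25 fell to 7, 0 and 4 without replicates 1, 2 and 3. At 15 min the count of 27 fell to 11 and 12 without replicates 1 and 2, and at 10 min the 11 calls became 0, 20 and 7 without replicates 1, 2 and 3. Without the 12 libraries of 10 and 15 min, 45 genes were called over the other 7 times and 43 at 120 min. The dip at 90 min was itself not called: the test of the N effect at 60 minus 90 min and that of 120 minus 90 min called 0 members by edgeR's quasi-likelihood test (background 0.194% and 0.00%) and 0 by DESeq2, with 19 and 10 members at an unadjusted p under 0.05 in edgeR (14.3% and 15.1% of all genes). The difference of 60 minus 30 min was called in 3 members (background called higher 0.775%), among them the RPS7 gene AT3G02560 (0.78, SE 0.21, adjusted p = 0.0453), and in 0 without replicate 1, 2 or 3.

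The root genes with the smallest any-time p were 2 RPS2, 1 RPS18 and 2 RPS7 genes. XW6 (AT1G58380) stood at 95.2, 99.4 and 93.1 CPM in N roots at 120 min, against 57.7, 53.7 and 68.6 CPM in KCl roots, higher by 0.68 (SE 0.11, adjusted p = 9.41e-06). AT3G57490 stood at 63.2, 65.9 and 65.3 CPM with N at 90 min, against 37.5, 35.9 and 43.1 CPM with KCl, higher by 0.74 (SE 0.14, adjusted p = 7.41e-05). These 2 RPS2 genes were also the ones called lower at 10 min and the ones called higher at 90 min; RPSAb had an effect of 0.57 at 90 min without a call, and whether they differ from other members was not tested. The RPS18 gene AT1G34030 stood at 209, 234.5 and 293 CPM with N at 60 min, against 171, 125 and 136 CPM with KCl, higher by 0.77 (SE 0.16, adjusted p = 0.00049).

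Of the RPS7 genes, whose protein belongs to the body of the subunit, AT1G48830 had its smallest p at 5 min. It stood at 120.1, 134.5 and 124 CPM with N, against 96.8, 80.9 and 91.0 CPM with KCl, higher by 0.49 (SE 0.10, adjusted p = 0.00394), and this was the 1 root call at 5 min. That count was 0 without replicate 1, 2 or 3. AT3G02560 stood at 238, 275 and 325 CPM with N at 60 min, against 189, 149 and 167 CPM with KCl, higher by 0.73 (SE 0.15, adjusted p = 0.000311). N and KCl libraries did not overlap for these genes at the times given.

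The 1 member not called in the root was the RPS2 gene AT1G59359 (any-time adjusted p = 0.172). It stood at 0.736, 2.42 and 14.6 CPM in N roots at 120 min, against 0.466, 0.987 and 6.35 CPM in KCl roots, and the groups overlapped. All its 50-base words also occur in the annotated copy AT1G58684, so how reads were split between the 2 copies decides its value, and both its shoot level and its organ difference are uncertain. XW6 shares 27.7% of its 50-base words with that copy, and the RPS16 genes AT2G09990 and AT5G18380 share 15.5% and 14.3% with each other. RPSAb (AT3G04770) shares 6.16% with AT3G04780, and the RPS12 gene AT2G32060 shares 8.71% with AT2G32050. Of the 46 genes, 34 share none with any other gene.

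Within several families the log2 effects of paralogs in the shoot lay far apart. In 15 of 18 families the listed gene with the lowest level per kilobase of exon at time 0 had a larger log2 N effect at 120 min than the listed gene with the highest. In the root this held for 10 of 18. As a share of the summed CPM per kilobase of the family's listed genes, RPSAb made up 7.78 ± 0.47% in N shoots at 120 min and 2.31 ± 0.29% in KCl shoots (SD, n = 3 each). AT3G57490 made up 12.9 ± 0.45% of the listed RPS2 genes with N and 6.55 ± 0.37% with KCl. The RPS2 sum leaves out the copy AT1G58684 and includes AT1G59359, whose value depends on how reads were split with that copy. RPS6 (AT4G31700) made up 50.7 ± 0.78% of its family with N and 41.7 ± 0.97% with KCl. RPS18C, the most abundant RPS18 gene, made up 40.6 ± 1.42% of its family with N, against 53.1 ± 1.25% with KCl. These shares were not tested. In the root the same shares were closer, such as 3.11 ± 0.20% with N and 1.93 ± 0.24% with KCl for RPSAb and 50.4 ± 1.0% and 50.4 ± 1.52% for AT4G31700.

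**Figure D4:**
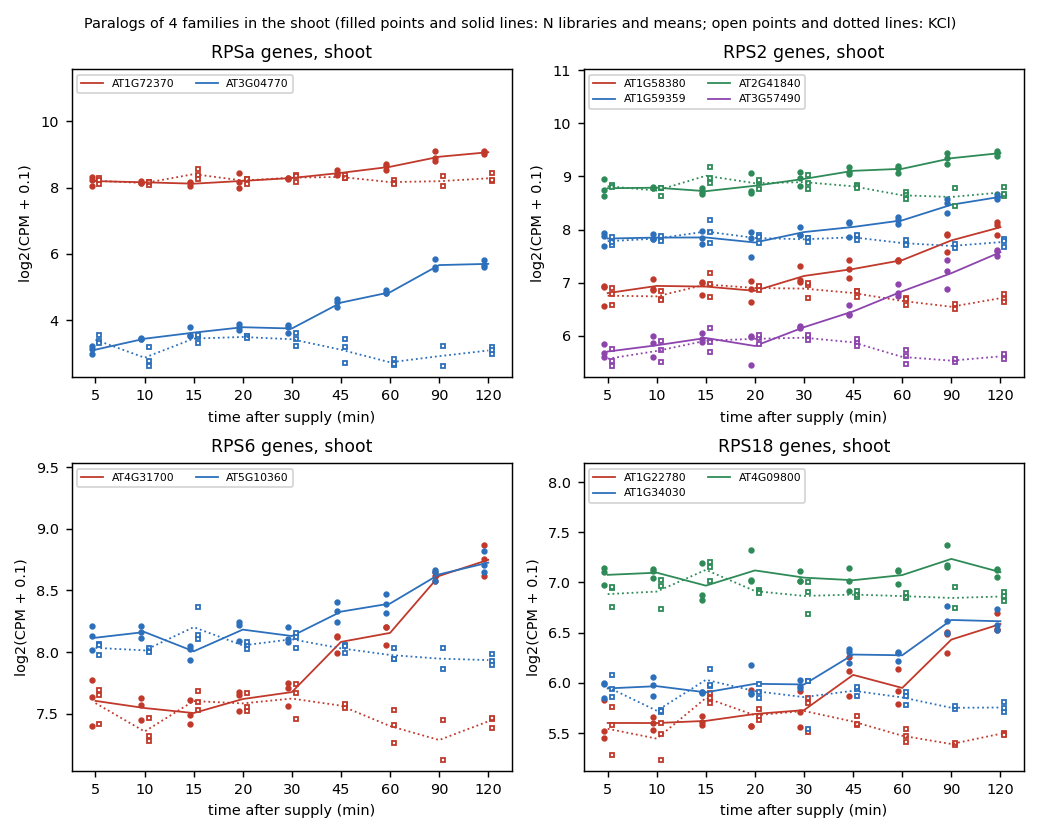
Levels of the RPSa, RPS2, RPS6 and RPS18 genes in the shoot as log2(CPM + 0.1) against time in min on an evenly spaced axis; each point is a library, filled with a solid line through group means for N and open with a dotted line for KCl. RPSAb (AT3G04770, log2 2.63 at 120 min) and AT3G57490 (1.96) part from their KCl libraries further than their more abundant paralogs P40 (0.78) and AT2G41840 (0.74), and RPS18C (0.24) less than PFL (1.10).

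Across the 46 genes in the shoot, the log2 level per kilobase at time 0 and the log2 N effect at 120 min had a Pearson r of -0.72 and a Spearman rho of -0.44. In the root r was -0.62 and rho -0.41, and without AT1G59359 they were -0.50 and -0.37. With the root effect at 60 min r was -0.45 and rho -0.17, and without AT1G59359 -0.066 and -0.11, so the root relation was weaker at that time. The 46 points share their libraries and depth, so these values are a description. The members with the lowest shoot levels at time 0 include some of the largest effects, such as RPSAb (5.73 CPM per kilobase, log2 2.63), and some have few counts. For the shoot, r and rho without these members were not computed. Effects of shoot and root at 120 min had r = 0.45 and rho = 0.49 over the 46 genes. By promoter motif, the median log2 effect at 120 min was 0.79 in shoots for the 24 genes with a telo-box and 0.88 for the 22 without, and 0.79 for the 31 genes with a site II element and 0.94 for the 15 without. These medians were not tested against each other.

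**Figure D5:**
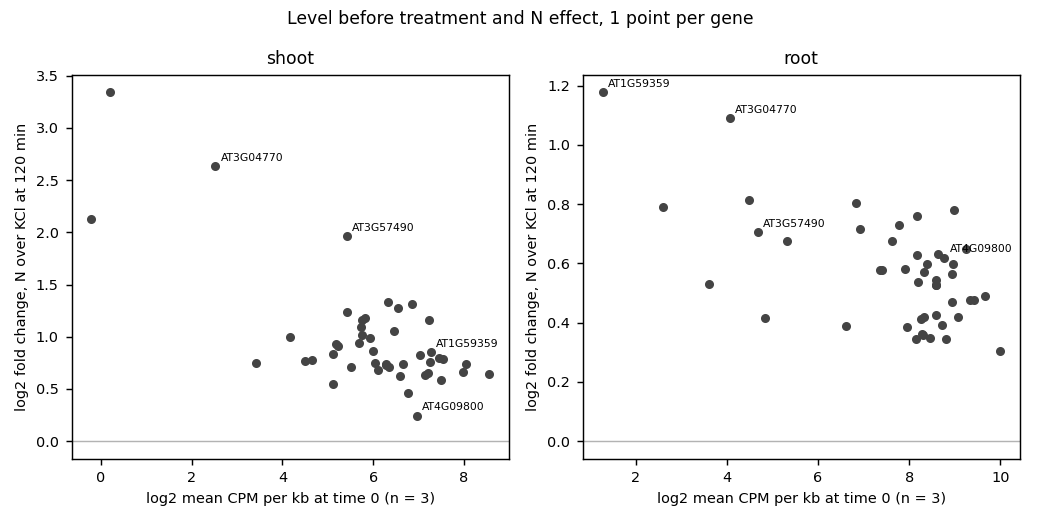
Each point is 1 of the 46 genes, with the log2 mean CPM per kilobase at time 0 (n = 3) across and the log2 fold change of N over KCl at 120 min up the page, shoot on the left and root on the right. AT3G04770 (2.63), AT3G57490 (1.96) and AT4G09800 (0.24) are named with their shoot effects. Across the 46 genes r was -0.72 and rho -0.44 in the shoot, and r was -0.62 and rho -0.41 in the root.

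The N effect itself differed between shoot and root in 42 of 46 genes over the 9 times (edgeR quasi-likelihood test of the difference over 22757 genes, where the background was 36.0%). At 15 min 31 genes had a lower N effect in the shoot (background called lower 4.69%; 16, 9 and 12 without replicates 1, 2 and 3), at 90 min 40 had a higher one (background called higher 7.78%) and at 120 min 9 had a higher one (background called higher 9.43%; 4 without replicate 3). Among those of 120 min were RPSAb, AT3G57490, XW6, AT2G31610 (RPS3), AT5G58420 (RPS4) and RPS6 (AT4G31700). Without the root libraries of 10 and 15 min, 30 genes were called over the other 7 times. Leaving out replicate 1 or replicate 3 lowered the calls over all genes as well, and left 1 KCl shoot library at 90 min. Without replicate 1 or replicate 3 the count of 42 fell to 14 and 13, and at 90 min the 40 calls fell to 5 and 10, so the count of differing genes moved with the libraries used.

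At 90 min RPSAb stood at 46.2, 57.8 and 48.1 CPM in N shoots, against 6.02 and 9.10 CPM in KCl shoots, and at 22.8, 19.1 and 24.6 CPM in N roots, against 11.3, 13.9 and 19.7 CPM in KCl roots. Its log2 N effect was 2.75 (SE 0.18) in the shoot and 0.57 (SE 0.23) in the root, a difference of 2.20 (SE 0.31, adjusted p = 1.45e-07). RPS6 (AT4G31700) had effects of 1.32 (SE 0.11) in the shoot and 0.33 (SE 0.15) in the root at 90 min, a difference of 1.01 (SE 0.19, adjusted p = 7.25e-05). At 15 min AT5G58420 stood at 191.5, 189 and 195.7 CPM in N shoots, against 254, 225 and 215 CPM in KCl shoots. The 254 CPM is from KCl replicate 1, which had the fewest counts of the shoot libraries used (5710272). In roots AT5G58420 stood at 862, 957 and 960.4 CPM with N, against 638, 628.5 and 635 CPM with KCl. The N libraries were below the KCl libraries in the shoot and above them in the root, and the difference of the effects was -0.86 (SE 0.16, adjusted p = 0.000108).

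Before treatment the 46 genes were lower in the shoot than in the root. All 46 were called at time 0 (background 79.5%), 42 lower in the shoot (background called lower 43.4%) and 4 higher (background called higher 36.1%), with a median log2 difference of -2.02, beside -0.16 for all genes tested. The RPS14 gene AT2G36160, whose protein is part of the platform, stood at 19.31, 18.96 and 19.58 CPM in shoots and 473, 357 and 448 CPM in roots (log2 -4.60, SE 0.20, adjusted p = 2.91e-34). Higher in the shoot were XW6 (0.89, SE 0.11, adjusted p = 4.22e-11), AT3G57490 (0.60, SE 0.13, adjusted p = 2.27e-05), the RPS9 gene AT5G39850 (0.56, SE 0.16, adjusted p = 0.00102) and AT1G59359, whose value depends on its copy. The most abundant member per kilobase was AT5G18380 (RPS16) in the shoot, at 374 ± 13.3 CPM per kilobase (SD, n = 3). Shoot and root files differ in their line for reads that map to several places, as given above, and this cannot be told apart from the organ.

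The KCl arm shows how far the 46 genes moved without added nitrogen. In the shoot the 46 genes summed to 4665 to 5030 CPM at time 0 and to 5976 to 6319 CPM after 5 min of KCl. They summed to 6475 to 7531 CPM after 15 min and to 5693 to 5995 CPM after 120 min. Only 120 min of KCl was tested against time 0. The backgrounds given here are of the main fit. For counts from other fits in this paragraph the share over all genes is not given, so they do not show a change particular to the members. In the shoot at 120 min of KCl against time 0, 8 genes were higher and none lower (background called higher 1.56%), with a median log2 change of 0.22. The largest were the RPS9 gene AT5G15200 (0.47, SE 0.09, adjusted p = 0.000664) and the RPS3a gene AT3G04840 (0.44, SE 0.09, adjusted p = 0.00341). Without replicate 1, 2 or 3 this count was 4, 1 and 0, it was 14 by DESeq2, and it was 3 with the nearly empty KCl library kept in the fit. In the root 4 genes were higher (background called higher 24.0%) and 17 lower (background called lower 24.0%), with a median of -0.21. The RPS12 gene AT1G15930 fell by 0.83 on the log2 scale (SE 0.18, adjusted p = 0.000189) and RPS13A (AT4G00100) by 0.75 (SE 0.18, adjusted p = 0.000767). Without replicate 1 the count of 21 fell to 3. The 21 calls are a share of the 46 members close to the background of 48.1%.

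Genes of other ribosome groups are given for comparison, with lists chosen when results of these data were known. At 120 min in the shoot, 38 of 44 tested genes for other 40S proteins, 102 of 103 for 60S proteins and 16 of 16 for nucleolar assembly factors were higher, with medians of 0.77, 0.81 and 1.65. SWA1 (AT2G47990), needed for processing of ribosomal RNA, averaged 242 ± 7.69 CPM with N and 41.6 ± 1.87 CPM with KCl (SD, n = 3 each), higher by 2.54 on the log2 scale (SE 0.10, edgeR adjusted p = 3.71e-23). The 60S gene AT2G32220 averaged 107.7 ± 2.40 CPM with N and 17.8 ± 2.44 CPM with KCl (SD, n = 3 each), higher by 2.60 (SE 0.15, edgeR adjusted p = 2.64e-18). In the root at 120 min 39 of 47, 91 of 105 and 15 of 16 were higher, and at 90 min 0, 2 and 10. Nuclear genes for plastid small-subunit proteins gave 0 calls of 9 in the shoot by edgeR's quasi-likelihood test, at each time and in the test over all times together. In the test over all times 0 were at an unadjusted p under 0.05 and 0 were called by DESeq2, and at single times 1 gene at 15 min and 1 at 30 min were at an unadjusted p under 0.05, with a median of -0.14 at 120 min. In the root 4 of these 9 were higher at 120 min.

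Of 6 genes of the TOR complex and S6 kinases, 1 was higher and 2 lower in the shoot at 120 min, and 1 higher and 4 lower in the root. The higher one in the shoot was PK1 (AT3G08730), an S6 kinase gene, which averaged 219 ± 19.1 CPM with N and 107.6 ± 6.49 CPM with KCl (SD, n = 3 each), higher by 1.02 (SE 0.10, edgeR adjusted p = 8.47e-12). TOR (AT1G50030) fell by 0.80 on the log2 scale in the shoot at 90 min (SE 0.14, adjusted p = 1.26e-05). At 120 min the background called higher was 19.1% in the shoot and 18.6% in the root. The share of all genes called lower at that time is not given here, so the lower counts in this paragraph have no background beside them. Of 4 markers of dividing cells 0 were called at 60, 90 and 120 min in either organ by edgeR's quasi-likelihood test (0 at an unadjusted p under 0.05 and 0 by DESeq2). At 45 min 2 were higher in the shoot, among them CYCB1;1 (AT4G37490, log2 1.78, SE 0.40, adjusted p = 0.000883). The 4 had a median log2 fold change of 0.78 in the shoot at 45 min (0.56 to 1.78) and 0.49 at 60 min (0.17 to 0.66). Their medians were 0.13 at 90 min and -0.11 at 120 min. The 46 genes had medians of 0.36 and 0.46 at 45 and 60 min. Of the 6 shoot markers 1 was called in the shoot at 120 min, LHCB2.1 (AT2G05100), which fell by 0.75 (SE 0.26, adjusted p = 0.0194). Of 5 root markers 3 were called in the root at 120 min, 1 higher and 2 lower, among them SHV2 (AT5G49270), which fell by 1.55 (SE 0.36, adjusted p = 0.000761). The part of these marker changes in the result was not tested.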

How the data were processed

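The deposited files are raw read counts per gene, 1 file per library, for 114 libraries. Per the labels' protocols, polyadenylated RNA was made into libraries with dUTP second-strand synthesis. Per the submitters' processing notes, TopHat2, HTSeq and limma were used with the TAIR10 build; the strand setting of the counting is not given in the sources used here. Groups, arms and times come from the sample labels; the labels of root replicate 1 at time 0 name both organs, and it was taken as root by its title. The 5 lines of each file that name no gene were kept out of library sizes.

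The deposited counts were tested with edgeR 4.0.16 (R 4.3.3): TMM scaling, filterByExpr (10 counts per library, 15 in total), and quasi-likelihood F-tests with 1 mean per group, fitted separately for shoot and root and once for both organs. P-values are two-sided and adjusted by Benjamini-Hochberg over all genes tested. A library with under 100000 gene counts was left out of all fits. SE is the log2 fold change divided by the square root of F. CPM uses TMM library sizes, and levels per kilobase use exon lengths of RefSeq TAIR10.1, which also gave promoters, with no protein sequence printed. No 2 libraries of the same group agreed within sampling noise: over 112 pairs the smallest chi-square per gene was 5.65.

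The 46 members, the gene lists and the tests were chosen with earlier results of these data known. Members described in every library are, per organ, the 5 with the smallest any-time p and each not called, at the time of their smallest p; RPSAb, RPS6 and others are also given where the organ difference was tested. The tests of differences between times, the fits without the root libraries of 10 and 15 min, and the member shown for the smallest fold change were chosen after seeing the data. Alternatives were DESeq2 1.42.0, its size factors in edgeR, no count filter, the shallow library kept, a replicate block, and libraries left out. The totals count all 46 members, but 7 members are not reported by name here. The code was tested on simulated data.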

Additional observations from a re-analysis of the deposited data

Results flagged for a closer look

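The N effect differed between shoot and root, by a test of the difference itself, in 42 of the 46 genes over the 9 times (36.0% of all genes). The count was 14 without replicate 1 and 13 without replicate 3. Calls over all genes also fell in those fits, so 36.0% is not the share to set their counts against. The 5 genes with the smallest p for this difference are listed by the log2 N effect in shoot minus that in root. It was 2.20 for RPSAb (AT3G04770) at 90 min (SE 0.31, edgeR adjusted p = 1.45e-07) and 1.26 for the RPS2 gene AT3G57490 at 120 min (SE 0.18, edgeR adjusted p = 2.19e-07). It was -0.86 for the RPS4 gene AT5G58420 at 15 min (SE 0.16, edgeR adjusted p = 0.000108), a time at which root libraries of both arms stand apart. It was 0.82 for the RPS3 gene AT2G31610 at 90 min (SE 0.16, edgeR adjusted p = 7.63e-05), where the N effect was 1.04 in the shoot and 0.23 in the root, and 1.01 for RPS6 (AT4G31700) at 90 min (SE 0.19, edgeR adjusted p = 7.25e-05). At 90 min the shoot KCl group has n = 2. Groups of 3 were not tested for single libraries far from the others.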

How the results depend on the processing

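Over all alternatives run, the count of 46 genes called in the shoot was 45 or 46 at any time and 44 to 46 at 120 min. The root count at any time was 40 to 45, against 45. The count at time 0 between organs was 44 to 46. No gene's log2 effect changed sign at its time of smallest p; 1 shoot value, 47 root values and 1 organ difference lost their call under an alternative, most of them when a replicate was left out. Without one replicate in every group, which leaves the shoot KCl group at 90 min with 1 library that is assumed to vary like the others, the root count at 120 min was 13 to 43, the organ difference at any time 13 to 38, KCl at 120 min against time 0 in the shoot 0 to 4 and in the root 3 to 16. Leaving out 1 library of root at 120 min gave 21 to 46, with 23 without KCl replicate 1 and 21 without KCl replicate 2. KCl at 120 min against time 0 in the shoot counted 14 genes by DESeq2 and 3 with the shallow library kept, against 8, and the cause was not tested. Calls over all genes also fell in the organ-difference fits without replicate 1 or replicate 3. For the other counts in this section the share over all genes in the same fit is not given. They do not show a change particular to the members.

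Other counts also moved by over 1.5 times with all replicates in. By DESeq2 the shoot counted 3 genes at 10 min and 2 at 20 min, against 0, the growth from 60 to 120 min 22, against 14, the root 2 at 5 min, against 1, the root growth from 30 to 60 min 11, against 3, and the organ difference 4 at 10 min and 2 at 60 min, against 1 each. The organ difference at 10 min was also 2 with RLE size factors and with the replicate block. The shoot counted 1 at 20 min with RLE size factors, 1 at 10 min and 0 at 30 min with the shallow library kept, and 0 at 30 min with no filter. The root growth from 30 to 60 min was 1 with no filter and 6 without the root libraries of 10 and 15 min, a setting that also gave 2 for the root at 5 min and 2 for the organ difference at 60 min. The telo-box share was 17.4% with upstream bases alone, against 52.2%. With the replicate number as a block the counts were 46 and 45 at any time in shoot and root, 46 and 43 at 120 min, 42 for the organ difference, 45 at time 0 between organs, and 8 and 21 for KCl against time 0. Same-numbered N and KCl libraries of a time deviated together (correlation over 0.1) in 3 of 26 shoot pairs and 5 of 27 root pairs. With so few libraries per group this does not show whether the numbers pair the libraries. Same-numbered shoot and root libraries were not compared. Genes with few counts carry the widest errors.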
